A study of Mus musculus with 2 samples.

Results

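Basophils were examined here among the cells of allergic ear skin. Cells were selected on the reads of Mcpt8, which encodes mast cell protease 8, a granule protease that mouse basophils make in large amounts. A cell barcode was taken as a basophil when at least 500 of every 1000000 of its reads (the unit CPM) came from Mcpt8, when the mast cell proteases Cma1, Tpsb2 and Mcpt4 together stayed under 2000 CPM and when the collagen gene Col1a1 stayed under 3000 CPM. Of 8359 barcodes kept after quality filters, 170 met the rule, which is 2.03%, and 148 of them could be given to 1 of the 4 pools. The remaining 22 carried several hashtags (18 cells) or too few hashtag reads (4 cells).

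The skin came from wild-type (WT) and Ccr2-/- mice on the BALB/c strain in IgE-mediated chronic allergic inflammation (IgE-CAI). Sensitization was by 300 µg of TNP-specific IgE given into a vein, and challenge by 10 µg of TNP-coupled ovalbumin (OVA) injected into the ear skin a day later. Ccr2-/- mice lack the chemokine receptor CCR2 in every cell. Ears were digested 3 or 5 days after challenge, and the cells of each genotype and day were stained with their own hashtag antibody, mixed, and sequenced as 1 library by TAS-Seq on the BD Rhapsody microwell system. Each of the 4 groups was thus 1 pool of cells from digested ear skin, resident cells such as fibroblasts included. The number of mice in a pool was not stated, and no untreated skin was included, so differences between pools have no replicate check.

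Basophils are rare blood granulocytes that enter inflamed tissue and bind IgE through FcεRI, a receptor made of the chains encoded by Fcer1a, Ms4a2 and Fcer1g. Antigen that crosslinks the bound IgE makes them release histamine and granule proteases and transcribe cytokines, among them IL-4. In the IgE-CAI model basophils are known to initiate the late swelling, and their IL-4 is known to act on recruited monocytes. The transcription factor GATA2 is required for their development, and CD200R3 is an activating surface receptor used to mark them.

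Promoter sequences are given for 3 of the genes on which the description turns, the surface marker Cd200r3 and the cytokine genes Il4 and Il13. Each line holds the 250 bases before the annotated start in RefSeq (GRCm38.p6), written 5′ to 3′ on the gene's strand. Capitals mark the letters GATAA, the core that GATA factors can bind, and GGAAA, the core that NFAT factors can bind, each searched on both strands (as TTATC and TTTCC). The windows are chr16:44943428-44943677 on the plus strand for Cd200r3, chr11:53618666-53618915 on the minus strand for Il4 and chr11:53634703-53634952 on the minus strand for Il13.
Cd200r3: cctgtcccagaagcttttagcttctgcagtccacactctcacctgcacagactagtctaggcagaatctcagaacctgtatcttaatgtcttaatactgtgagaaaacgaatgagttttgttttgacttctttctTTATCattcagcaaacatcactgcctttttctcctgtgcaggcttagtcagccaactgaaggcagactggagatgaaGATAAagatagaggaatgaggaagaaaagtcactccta
Il4: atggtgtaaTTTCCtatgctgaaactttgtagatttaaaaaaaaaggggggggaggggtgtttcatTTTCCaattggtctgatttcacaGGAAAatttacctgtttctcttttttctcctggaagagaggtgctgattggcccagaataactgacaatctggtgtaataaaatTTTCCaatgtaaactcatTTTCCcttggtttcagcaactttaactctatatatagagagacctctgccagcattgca
Il13: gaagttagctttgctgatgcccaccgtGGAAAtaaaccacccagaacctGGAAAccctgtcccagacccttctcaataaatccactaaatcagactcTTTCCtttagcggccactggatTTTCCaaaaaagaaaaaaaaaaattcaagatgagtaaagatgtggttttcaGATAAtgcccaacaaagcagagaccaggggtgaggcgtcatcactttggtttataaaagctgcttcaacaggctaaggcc
The Cd200r3 window held 2 matches to GATAA and 0 to GGAAA. The Il4 window held 0 matches to GATAA and 5 to GGAAA, and the Il13 window held 1 and 4. Among 32851 promoters, searched over the same 250 bases before the start, 22.6% held GATAA and 55.6% held GGAAA, so that either core alone is common, and a match is a description of the letters only. Il4 and Il13 lie on the same strand of chromosome 11 with 12654 bases between them. The last 4 bases of the Il4 window fall inside a longer transcript model of GENCODE.

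The basophils were unevenly spread over the pools. On day 3, 26 of 1543 WT barcodes were basophils, which is 1.69% (95% Clopper-Pearson interval 1.10 to 2.46), and 61 of 2191 Ccr2-/- barcodes, which is 2.78% (2.14 to 3.56). On day 5, WT skin had 1 basophil among 1037 barcodes, and Ccr2-/- skin had 60 among 2347, which is 2.56% (1.96 to 3.28). The share in Ccr2-/- skin was thus 1.65 times that in WT skin on day 3, with overlapping intervals. The mean of the 2 Ccr2-/- pools was 2.67% and that of the 2 WT pools 0.891%, a difference of 1.78 percentage points (exact permutation test over the 4 pools, two-sided, p = 0.33, the smallest value that 6 splits can give), and the WT mean includes the day 5 pool with its 1 cell. The test took day 3 and day 5 as 2 samples of each genotype and left the day out of account. That WT day 5 held few basophils was known when the cells were chosen. With 1 pool per genotype and day the test cannot decide whether the genotypes differed, and no conclusion is drawn from it or from the means. Counts in the deposited matrix are reads and not molecules. Intervals and detection limits from reads treat each read as independent, so they can be too narrow and leave out the spread between cells. Intervals of shares of cells cover the sampling of cells only. Neither kind covers the spread between mice.

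**Figure D1:**
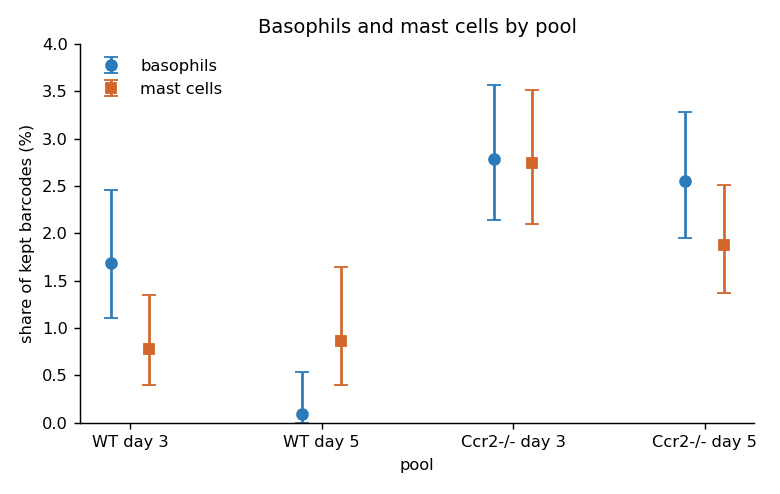
Basophils and mast cells as a percentage of the kept barcodes of each of the 4 pools, with 95% Clopper-Pearson intervals. Basophils reached 1.69% in WT day 3, 2.78% and 2.56% in the Ccr2-/- pools, and were a single cell in WT day 5, where mast cells made up 0.868%.

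The share also moves with the number of other cells that were caught. Among barcodes with a read of Ptprc, which encodes the leukocyte antigen CD45, basophils were 1.89% in WT day 3, 3.55% in Ccr2-/- day 3 and 2.29% in Ccr2-/- day 5. Against mast cells, the other cells here that bear FcεRI, the order of the day 3 pools turned round, with 2.17 basophils per mast cell in WT and 1.02 in Ccr2-/- skin. On day 5 there were 1.36 basophils per mast cell in Ccr2-/- skin, and 1 basophil beside 9 mast cells in WT skin. In the cells other than basophils, 6 marker genes of monocytes and macrophages summed to 3479 CPM in WT day 3 and to 729 and 699 CPM in the Ccr2-/- pools. More basophils and fewer of the other cells cannot be told apart from shares, and the part of these differences in the result was not tested. The study also counted basophils in ear skin on day 5 by flow cytometry, and those counts were not used here.

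The cells near the Mcpt8 threshold were few. The 5 members just inside had 533, 586, 607, 630 and 650 CPM of Mcpt8, and the 5 barcodes just outside had 281 to 344 CPM. Between 200 and 500 CPM, just outside the rule, lay 10 barcodes, and 9 members lay between 500 and 1000 CPM. These levels and counts are of barcodes in a pool that met the protease and Col1a1 limits. Mcpt8 defined the basophils, and its level is given as a description. It was 6654 CPM (exact Poisson 95% interval 6435 to 6879) in the summed reads of the 26 WT day 3 cells, 10552 CPM in Ccr2-/- day 3 and 9704 CPM in Ccr2-/- day 5, with single cells from 533 to 38856 CPM and overlapping ranges in all 3 pools.

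The name of the cells was checked against the other markers. Of the 148 basophils, 134 (90.5%) had reads of at least 2 of the 4 markers Cd200r3, Gata2, Fcer1a and Ms4a2, and 6 had reads of none. Among the 6970 pooled barcodes that were not basophils the same held for 171 (2.45%), of which 96 were mast cells. Cd200r3 (chr16:44943678-44981380) stood at 731 CPM in WT day 3, 1047 in Ccr2-/- day 3 and 1142 in Ccr2-/- day 5. Gata2 (chr6:88193891-88207032) stood at 1067, 1452 and 1704 CPM in the same order. Both markers were thus present in every pool, in 22 of 26, 51 of 61 and 49 of 60 cells for Cd200r3.

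Reads of other cell types were not absent, and most of them lay under their level in the other cells of the pool. Kit, the stem cell factor receptor of mast cells, had 0 reads in all 3 pools, which allows a level of up to 5.72 CPM in WT day 3 and 2.36 CPM in either Ccr2-/- pool. The selection itself limited Cma1, Tpsb2, Mcpt4 and Col1a1, so mast cell and fibroblast reads are given without these genes. The other 3 mast cell markers (Kit, Tpsab1 and Mrgprb1) gave 0 reads in WT day 3, 6.31 CPM in Ccr2-/- day 3 and 3.94 CPM in Ccr2-/- day 5, against 55.9 to 374 CPM in the other cells of the pools. The other 5 fibroblast markers gave 1118, 1052 and 885 CPM in the basophils, against 26122 to 35412 CPM in the other cells. Eosinophil markers gave 22.9, 52.0 and 70.9 CPM, against 66.5, 15.5 and 14.1 CPM in the other cells. T cell markers gave 45.8, 97.7 and 67.8 CPM, against 54.1, 47.9 and 48.3 CPM. Both were thus above the other cells in the Ccr2-/- pools. Neutrophil markers gave 353, 385 and 1040 CPM, against 531, 1166 and 2738 CPM. At least 2000 CPM of the neutrophil genes S100a8 and S100a9 were carried by 5 basophils of Ccr2-/- day 5 and 1 of Ccr2-/- day 3. In WT day 3, 1 basophil had at least 2000 CPM of the myeloid gene Lyz2 and 1 had that level of the keratin genes Krt5 and Krt14, and with them the monocyte and macrophage markers reached 1244 CPM and the keratinocyte markers 971 CPM, against 225 CPM or less and 5.52 CPM or less in the Ccr2-/- pools. The other cells of WT day 3 stood at 3479 CPM of the monocyte and macrophage markers and 772 CPM of the keratinocyte markers. In Ccr2-/- day 5, 1 basophil had at least 2000 CPM of Lyz2. Some calls given below changed when the 8 basophils with such reads were left out. Among the 48 genes named by rank below, 4 were no longer called, and of these Ly6e, Il1r2 and Lyz2 are given both ways. The listed gene Ifitm3 is given both ways as well. A basophil had a median of 16306 reads in WT day 3, 19784 in Ccr2-/- day 3 and 19004 in Ccr2-/- day 5, with 1605, 1717 and 1747 genes.

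Ccr2, the gene deleted in the Ccr2-/- mice, encodes the receptor for CCL2. WT day 3 basophils held 135 Ccr2 reads, 258 CPM (216 to 305), in 10 of 26 cells, and 52.6% of the reads were in 1 cell. Ccr2-/- day 3 basophils held 42 reads, 33.1 CPM (23.9 to 44.8), in 8 of 61 cells, and Ccr2-/- day 5 basophils held 20 reads, 15.8 CPM (9.63 to 24.4), in 4 of 60 cells. The level was thus lower in both Ccr2-/- pools than in WT, as the labels have it, without being 0. With each cell thinned to 5000 reads, Ccr2 was found in 26.9% of WT day 3 cells, in 8.33% of Ccr2-/- day 3 cells and in 0 of 58 Ccr2-/- day 5 cells. At that depth 0 cells allow a share with a read of up to 5.17%, and at full depth the share was 4 of 60. Among barcodes with at least 3000 CPM of Col1a1, which should lack Ccr2, the thinned shares were 2.16%, 1.55% and 1.38%.

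Of the granule genes, Cpa3, which encodes carboxypeptidase A3 of basophil and mast cell granules, stood at 632 CPM in WT day 3, 1200 in Ccr2-/- day 3 and 821 in Ccr2-/- day 5, with reads in 19 of 26, 43 of 61 and 33 of 60 cells. Srgn, the proteoglycan core that holds granule proteins, was found in all cells of all 3 pools at 6209, 8902 and 8907 CPM. Prss34, which encodes the basophil protease mMCP-11, was carried by few cells, with reads in 1 of 26, 7 of 61 and 6 of 60 cells and a highest cell of 20634 CPM. Hdc, which encodes the enzyme that makes histamine, had reads in 26 of 26, 60 of 61 and 58 of 60 cells and stood at 4316, 5083 and 5878 CPM. In the thinned cells Hdc was found in 98.3% or more of the basophils of each pool and in 2.70% to 3.96% of the Col1a1-high barcodes.

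Reads of the IgE receptor were found in each pool. Fcer1a, the chain that binds IgE (chr1:173221284-173227214), stood at 202 CPM in WT day 3 (6 of 26 cells), 453 CPM in Ccr2-/- day 3 (36 of 61 cells) and 297 CPM in Ccr2-/- day 5 (27 of 60 cells). Ms4a2, the β chain (chr19:11615523-11623719), stood at 504, 779 and 839 CPM, and Fcer1g, the signalling chain shared with other receptors, at 1074, 1393 and 1216 CPM. All 3 chains were therefore found in every pool, and none met the rule for a difference that is described below. Csf2rb, the shared β chain of the receptors for IL-3 and GM-CSF, stood at 1141, 1833 and 1847 CPM. Lilrb4a, which encodes an inhibitory receptor, was found in every one of the basophils at 3687, 4064 and 4988 CPM.

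Il4 (chr11:53602982-53618669) was high in a few cells and absent from many. In WT day 3 the 26 cells ranged from 0 through a median of 0 to 26511 CPM, with reads in 12 cells and 1380 CPM (1281 to 1484) over the pool. In Ccr2-/- day 3 the 61 cells ranged from 0 through 125 to 7818 CPM, with reads in 34 cells and 609 CPM (566 to 653) over the pool. In Ccr2-/- day 5 the 60 cells ranged from 0 through 400 to 41806 CPM, with reads in 40 cells and 3074 CPM (2979 to 3172) over the pool. The ranges of single cells overlapped fully, and Ccr2-/- day 5 had the highest median cell. The reads sat in few cells, since 50% of the Il4 reads lay in 1 WT day 3 cell, in 7 Ccr2-/- day 3 cells and in 3 Ccr2-/- day 5 cells.

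Between Ccr2-/- day 5 and Ccr2-/- day 3 the Il4 level differed 5.05-fold (exact interval of the read ratio 4.68 to 5.46), and 4.19-fold without the top cell of each pool. Between Ccr2-/- day 3 and WT day 3 the ratio was 0.441 (0.398 to 0.489), but without the top cell of each pool the levels were 559 and 585 CPM and the ratio was 0.957 (0.834 to 1.10). The difference between genotypes on day 3 therefore rested on a single WT cell that held 58.9% of the pool's Il4 reads, and no direction is given for it. In the thinned cells, Il4 was found in 38.5% of WT day 3 basophils (10 of 26, 20.2 to 59.4), 50.0% of Ccr2-/- day 3 (30 of 60, 36.8 to 63.2) and 58.6% of Ccr2-/- day 5 (34 of 58, 44.9 to 71.4), with overlapping intervals. Among the Col1a1-high barcodes it was found in 0.705% or less.

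Il13, which encodes the related cytokine IL-13 (chr11:53631324-53634702), was likewise read in a part of the cells. It had reads in 5 of 26, 24 of 61 and 25 of 60 cells, and stood at 134, 231 and 521 CPM in the same order of pools. The ratio of Ccr2-/- day 5 to day 3 was 2.26 (1.96 to 2.60). The top cell held 61.4% of the Il13 reads in WT day 3, 16.4% in Ccr2-/- day 3 and 31.8% in Ccr2-/- day 5. Without the top cell of each pool the log2 ratio between these days was 0.89, from 1.17. Between Ccr2-/- and WT on day 3 it was 1.86, from 0.79. The order of the pools thus stayed, but the size of the ratios depended on single cells, which the interval leaves out. The thinned shares were 15.4%, 26.7% and 36.2%, against 0.172% or less in the Col1a1-high barcodes. Most basophils with Il13 also had Il4: both were found in 3, 13 and 17 thinned cells of the 3 pools, Il4 alone in 7, 17 and 17, Il13 alone in 1, 3 and 4, and neither in 15, 27 and 20.

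Il6, which encodes the inflammatory cytokine IL-6 (chr5:30013114-30019981), was found in most basophils whether or not they had Il4. It stood at 7539, 6471 and 9237 CPM with reads in 25 of 26, 58 of 61 and 55 of 60 cells. Among thinned cells with Il4, 9 of 10, 29 of 30 and 34 of 34 had Il6, and among those without Il4, 16 of 16, 26 of 30 and 17 of 24 had it. Col1a1-high barcodes also had Il6 in 39.5% to 54.9% of thinned cells, so this gene was not confined to basophils.

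**Figure D2:**
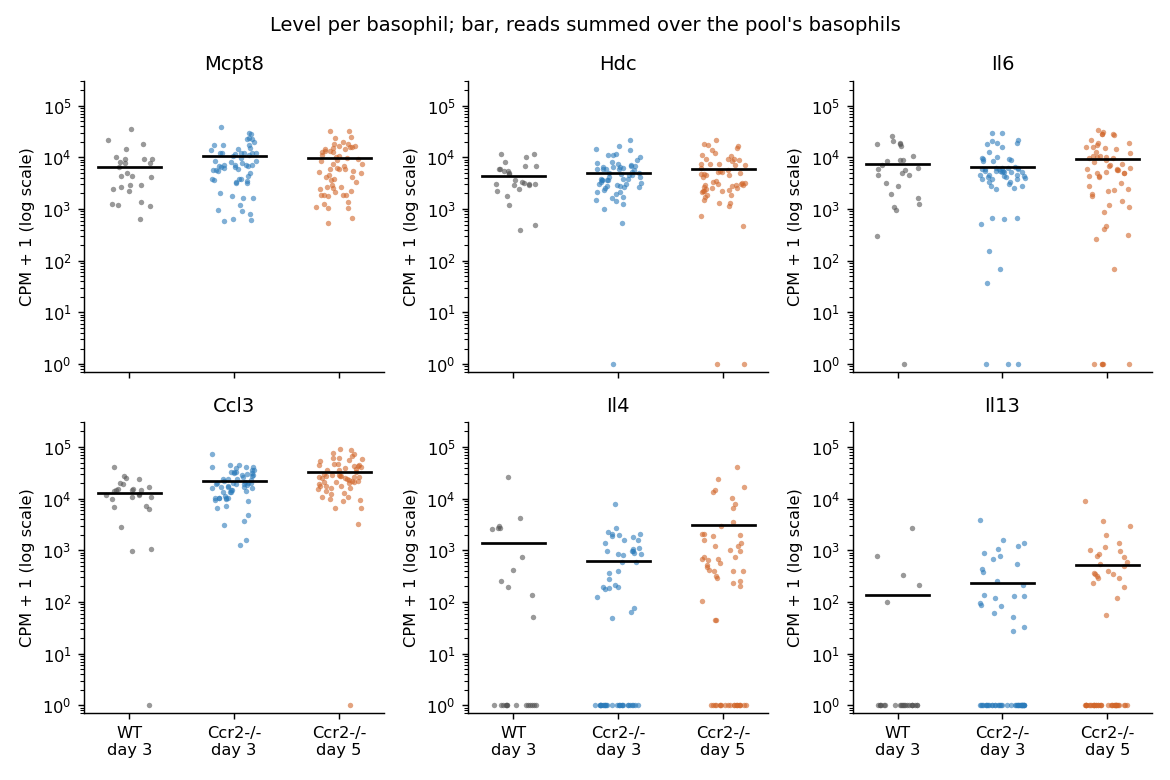
Levels in single basophils of WT day 3 (26 cells), Ccr2-/- day 3 (61 cells) and Ccr2-/- day 5 (60 cells) as CPM + 1 on a log axis, with a bar at the CPM of the summed reads. Mcpt8, Hdc, Il6 and Ccl3 filled nearly all cells, whereas Il4 and Il13 split into cells at 0 and cells up to 41806 and 8913 CPM.

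Chemokine genes were read in most basophils of each pool. Ccl3, which encodes an inflammatory chemokine, stood at 12850 CPM in WT day 3, 21933 in Ccr2-/- day 3 and 32692 in Ccr2-/- day 5, and Ccl4 stood at 10400, 15910 and 20702 CPM. The ratios for Ccl3 were 1.71 between the day 3 pools and 1.49 between the Ccr2-/- pools, both under 2-fold. Ccl6 stood at 3818, 5241 and 6314 CPM and Ccl9 at 5314, 5639 and 5118 CPM. Cxcl2, a neutrophil attractant, stood at 7919, 10684 and 6846 CPM.

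Among the growth factors, Csf1, which encodes the macrophage growth factor M-CSF, stood at 2246, 2271 and 2986 CPM. Osm, which encodes oncostatin M, stood at 1666, 3726 and 3211 CPM, a log2 ratio between the day 3 pools of 1.16 by summed reads and of 0.89 by the mean over cells. Hgf, which encodes hepatocyte growth factor, stood at 322, 699 and 768 CPM. Areg, which encodes the epidermal growth factor receptor ligand amphiregulin, was found in 5 of 26, 9 of 61 and 7 of 60 cells and held 163, 2038 and 467 reads. The ratio of CPM was 5.16 between the day 3 pools and 0.229 between the Ccr2-/- pools, with 71.2% of the WT day 3 reads, 44.9% of the Ccr2-/- day 3 reads and 41.5% of the Ccr2-/- day 5 reads in 1 cell. Areg was thus too sparse to be compared by the rule used for the other genes.

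Over the 148 cells the 10 genes whose CPM ranked most like Il4 were Il13 (Spearman's rho 0.47), the STAT5 target Cish (0.37), Mcpt8 (0.36), Ccl4 (0.34), Ccl3 (0.34), Ier3 (0.33), Hdc (0.31), Nr4a1 (0.31), Il6 (0.31) and Pim3 (0.30), out of 2463 genes ranked. All the points share 1 library, the cells differ in depth, and the rho of Il4 with the reads per cell was 0.24, so these values are descriptions. Within pools the rho of Il13 was 0.49, 0.36 and 0.56, and that of Cish 0.28, 0.21 and 0.51.

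The basophils held a large part of the type 2 cytokine reads of each pool. In WT day 3 they were 1.69% of the barcodes and held 29.5% of the Il4 reads. In Ccr2-/- day 3 they held 36.1% and in Ccr2-/- day 5 88.1% of the Il4 reads, with 46.1%, 33.3% and 74.9% of the Il13 reads. In the 2 day 3 pools a large part of the other Il4 reads came from 1 deep barcode each that reached the Mcpt8 threshold and was left out by the Col1a1 limit, with 61.7% of the WT and 25.8% of the Ccr2-/- Il4 reads. In either Ccr2-/- pool the top cell held 31.8% or less of the basophils' Il4 or Il13 reads. In WT day 3, 58.9% of the basophils' Il4 reads and 61.4% of their Il13 reads lay in 1 and the same cell. The day 3 shares of reads therefore depend on the Col1a1 limit, and those of WT also on that cell.

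The other secreted products differed in how far they were read in basophils. Basophils held 36.4%, 33.5% and 31.5% of the Ccl3 reads of the 3 pools and 34.9%, 25.7% and 21.9% of the Ccl4 reads. Of the Hgf reads they held 22.1%, 34.9% and 44.5%, and of the Osm reads 5.86%, 32.4% and 23.6%. Of Il6 they held 10.9%, 8.32% and 15.5%, and of Csf1 5.47%, 2.05% and 4.01%. Il1b, which encodes IL-1β, lay almost wholly in other cells, with 1.23% or less of its reads in basophils.

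**Figure D3:**
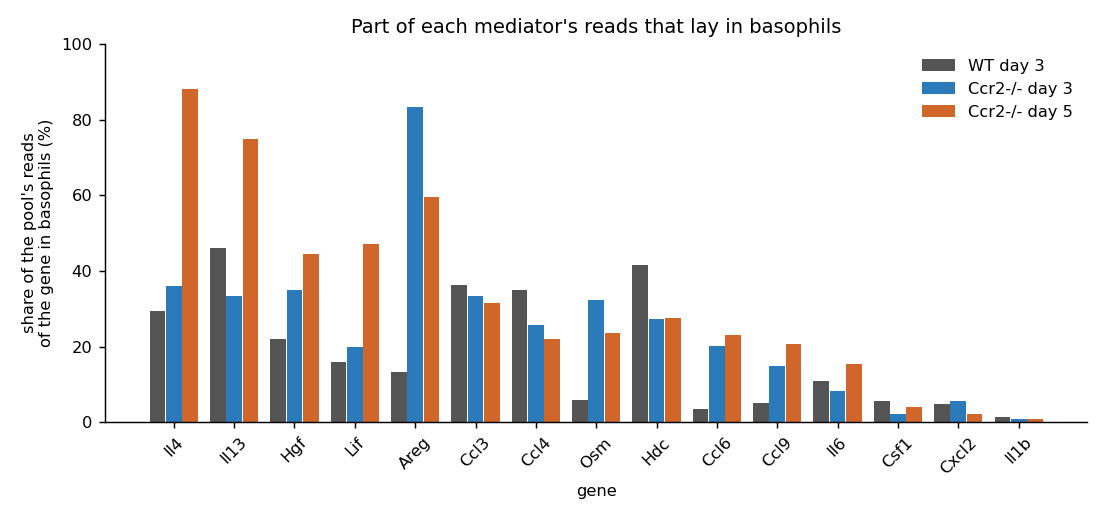
Percentage of all reads of a gene in a pool that lay in its basophils, as bars for WT day 3, Ccr2-/- day 3 and Ccr2-/- day 5. Il4 reached 88.1% and Il13 74.9% in Ccr2-/- day 5, while Il6 stayed at 15.5% or less and Il1b at 1.23% or less in all 3 pools.

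Basophils of the 2 genotypes were then compared on day 3, which asks what differed in them where CCR2 was missing. Since each group was 1 pool, there is no test, and a gene was called higher or lower where its CPM differed at least 2-fold the same way by summed reads, by the mean over cells and by summed reads without the top cell of each pool. Of 2311 genes with enough reads, 171 (7.40%) were higher in Ccr2-/- and 91 (3.94%) lower, and the median log2 ratio of all of them was -0.05. The limits on reads and cells held over both pools, so a gene nearly absent from 1 pool could enter through the other. Of the 1839 genes with reads in at least 20% of the cells of each pool, 57 were higher and 56 lower, so the excess of higher calls was not seen there. Of 191 genes on 13 lists of basophil functions, 106 could be compared, of which 2 were higher and 4 lower, a share no larger than that of all genes.

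None of the 14 cytokine and growth factor genes, the 12 genes of FcεRI and its signalling, the 5 granule protease genes, the 6 histamine and lipid mediator genes or the 19 immediate early genes that could be compared met the rule. Their median log2 ratios were 0.44, 0.21, 0.67, 0.64 and 0.04. The protease list holds Mcpt8, on which the cells were selected, and without it the 4 other proteases had a median of 0.71. The 2 listed genes that were higher in Ccr2-/- were C3ar1, the receptor for the complement fragment C3a, with 72.5 CPM in WT and 261 CPM in Ccr2-/- (ratio 3.60, 2.57 to 5.18), and Pcna, the DNA polymerase clamp (ratio 3.34). The 4 that were lower were Ccr2, the transcription factor Runx1 (ratio 0.490), the glucose transporter Slc2a1 (ratio 0.387) and the interferon-inducible gene Ifitm3 (ratio 0.268). Pcna turned to the other side without the Col1a1 limit, Runx1 no longer met the rule there (log2 ratio -0.62), and Slc2a1 did not meet it at a Mcpt8 threshold of 2000 CPM (-0.96). Ifitm3 had a log2 ratio of -1.89, and did not meet the rule where the top hashtag had to be 10 times the next (-1.22) or without the basophils that carried reads of other cells (-1.20). Ccr2 had reads in too few cells to be compared at that hashtag ratio (-2.14, from -2.92), and Ccr2 and Pcna too few where each pool had to reach the cell minimum.

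The 12 genes that were higher in Ccr2-/- basophils by the largest margin were Tmx4, Msl1, Rtn4, Pdia6, Eif3k, Psme4, Slc22a13b, Txndc17, Pigt, Isca1, Rab11b and Mprip. Most of them were low: Tmx4, a thioredoxin-like membrane protein, had 2 reads in WT and 130 in Ccr2-/- (3.82 and 102 CPM), Rtn4, a reticulon of the endoplasmic reticulum, 7 and 168 reads (13.4 and 132 CPM), and Rab11b, a recycling endosome GTPase, 14 and 220 reads (26.7 and 173 CPM). The WT reads of these 12 genes lay in 2 to 4 of the 26 cells. They entered the comparison through the Ccr2-/- pool alone, none could be compared where each pool had to reach the cell minimum, and their rank and count are no evidence of a difference. Pdia6 turned to the other side without the Col1a1 limit. Slc22a13b, a solute carrier, was read little outside basophils, with 187 CPM in the Ccr2-/- basophils and 0.124 CPM in the other cells of that pool.

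The 12 genes that were lower by the largest margin were Apoe, Ly6e, Ccr2, Gmip, Tra2a, Klf2, Smc1a, Wapl, Anxa11, Ndufv3, Stx4a and Ehd1. Apoe, which encodes an apolipoprotein that macrophages make, stood at 908 CPM in WT and 48.1 CPM in Ccr2-/-, with 76.1% of the WT reads in 1 cell (log2 ratio -4.21, and -2.95 without the top cells). Its log2 ratio was -1.91 without the basophils that carried reads of other cells and -1.85 at a hashtag ratio of 10, and it was also lower in the other cells of the Ccr2-/- pool (1393 and 704 CPM). Ly6e, a lymphocyte surface antigen, stood at 387 and 41.8 CPM and Klf2, a transcription factor of quiescence and trafficking, at 349 and 35.5 CPM. Ly6e had reads in too few cells to be compared in 4 other selections of basophils, with log2 ratios of -2.07 to -3.40 against -3.18. Of the 12 genes, Apoe, Wapl, Anxa11 and Ehd1 were called also where each pool had to reach the cell minimum, and the others could not be compared there. Their levels in the other cells were 469 and 374 CPM for Ly6e and 247 and 197 CPM for Klf2. Of all genes called, 2 of the higher and 6 of the lower ones also differed at least 2-fold the same way in the other cells of the pools. The share of all 2311 compared genes that did so was not counted, so these counts do not show that the other calls were particular to basophils.

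The 2 Ccr2-/- pools, of 61 and 60 cells, gave the comparison of days. Of 2364 genes compared, 71 (3.00%) were higher on day 5 and 88 (3.72%) lower, with a median log2 ratio of all genes of -0.02. Of the 2032 genes with reads in at least 20% of the cells of each pool, 31 were higher and 53 lower. The Ccr2-/- day 3 pool is part of both comparisons, so they are not independent of each other. Of the 104 listed genes that could be compared, Il4 and Ifitm3 were higher on day 5 and 0 were lower, and Ifitm3 turned to the other side without the Col1a1 limit. The 14 cytokine and growth factor genes had a median log2 ratio of 0.32, with Il4 the one member that met the rule. Il13 missed it at 0.89 on the log2 scale without the top cells.

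**Figure D4:**
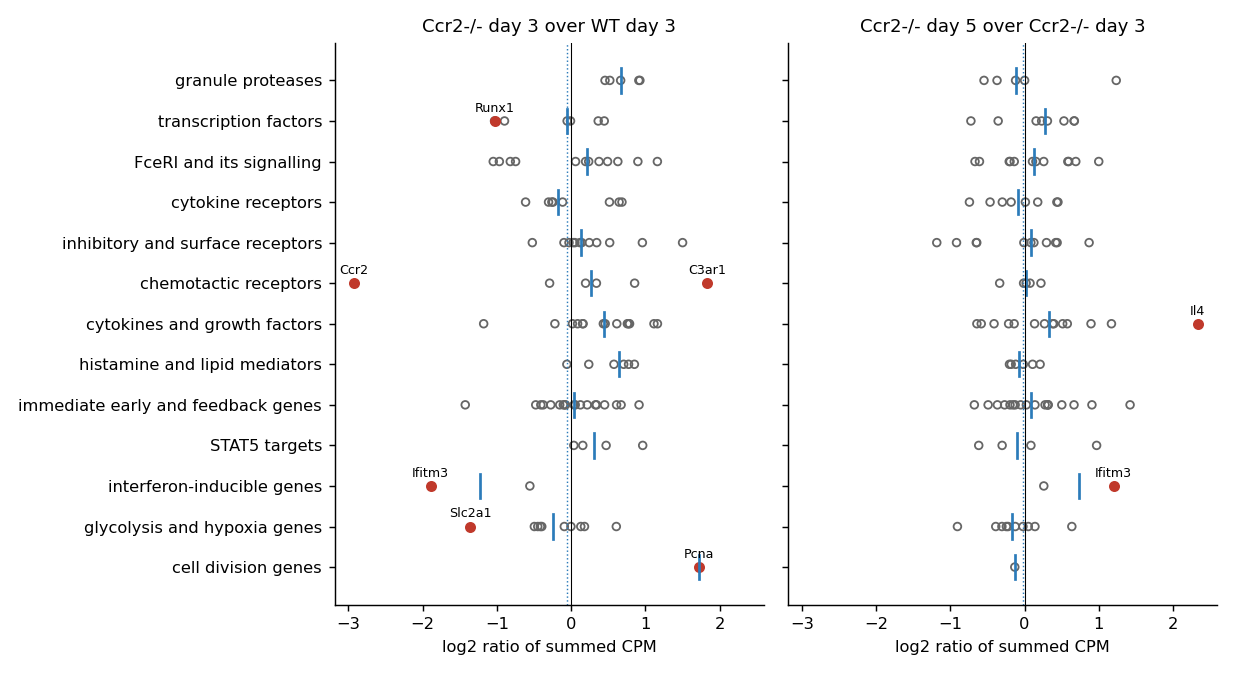
Log2 ratio of the summed CPM of each listed gene for Ccr2-/- against WT on day 3 and for day 5 against day 3 in Ccr2-/- basophils, by list, with the list median as a bar and the median of all compared genes as a dotted line. Filled red points met the 2-fold rule: C3ar1, Pcna, Ccr2, Runx1, Slc2a1 and Ifitm3 between genotypes, and Il4 and Ifitm3 between days.

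The 12 genes that were higher on day 5 by the largest margin were H2-Ab1, Il1r2, Pdia4, Lyz2, Ccdc47, Il4, Klf2, Aspscr1, Map2k4, Lamp1, Ccl11 and Dot1l. H2-Ab1, a chain of MHC class II, stood at 12.6 CPM on day 3 (10 cells) and 137 CPM on day 5 (18 cells), with 214 and 398 CPM in the other cells of the pools. Il1r2, the IL-1 decoy receptor, stood at 30.0 and 341 CPM and Lyz2, which encodes lysozyme, at 10.2 and 63.9 CPM. When the basophils with reads of other cell types were left out, Il1r2 had reads in too few cells to be compared (log2 ratio 3.01) and Lyz2 did not meet the rule (1.69 by summed reads), whereas Il4 met it. Il1r2 also had too few at a hashtag ratio of 10 (2.02) and where 2 of the 4 other markers were required (3.36). Lyz2 also missed the rule at a Mcpt8 threshold of 2000 CPM (1.74) and with those markers required (1.72). Where each pool had to reach the cell minimum, Il4 and Lamp1 were the 2 of these 12 genes that could be compared, and both were called. Pdia4 and Ccdc47, both of the endoplasmic reticulum, stood at 16.6 and 110 CPM and at 32.3 and 162 CPM, and Lamp1, a lysosomal membrane protein, at 53.6 and 179 CPM. Ccl11, the eosinophil attractant eotaxin, stood at 13.4 and 55.2 CPM, far under the 1805 and 982 CPM of the other cells, and its direction turned without the Col1a1 limit.

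The 12 genes that were lower on day 5 by the largest margin were Abcc1, Ube2v1, Arfgef1, Phc3, Lrrfip2, Bicral, Cul4a, Dennd5a, Klf5, Mprip, Slc22a13b and Vmn1r87. Klf5, a transcription factor of the Krüppel-like family, stood at 525 CPM on day 3 (36 cells) and 170 CPM on day 5 (20 cells), and at 13.9 to 14.8 CPM in the other cells. Abcc1, a membrane pump that exports leukotriene C4, stood at 162 and 24.4 CPM. Klf5, Lrrfip2, Dennd5a and Vmn1r87 were called also where each pool had to reach the cell minimum, and the other 8 genes could not be compared there. Slc22a13b stood at 187 and 60.7 CPM and Mprip at 71.7 and 22.9 CPM, so that the WT day 3 and Ccr2-/- day 5 pools both lay under Ccr2-/- day 3 for these genes. Klf2 (349 CPM in WT day 3, 35.5 in Ccr2-/- day 3 and 147 in Ccr2-/- day 5) and Ifitm3 went the other way, with Ccr2-/- day 3 lowest. For such genes the genotype and day calls share the Ccr2-/- day 3 value and are not separate results.

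Basophils were last set beside the mast cells of the same pools (12, 60 and 44 cells), which also bind IgE. The selection used Mcpt8 and the mast cell proteases, so this is a description and not a test. Of 2190 genes compared, 207 (9.45%) were at least 2-fold higher in basophils in each of the 3 pools and 221 (10.1%) lower. The limits on reads and cells held over both cell types together, so a gene nearly absent from 1 of them could enter through the other. In the 12 WT day 3 mast cells, Aqp9, Hacd4, Cdh1, Cyp4f18 and Klf5 had 0 reads. The counts and ranks are thus descriptions as well. The 10 genes higher by the largest margin were Ccl9, Aqp9, Hacd4, Cdh1, Cyp4f18, Klf5, Ifitm1, Ccl3, Ccl4 and Ncf1. Ccl3 stood at 12850, 21933 and 32692 CPM in basophils and at 5.93, 85.1 and 550 CPM in mast cells. Ifitm1 stood at 4274, 4357 and 4964 CPM against 68.3, 15.3 and 27.4 CPM, and the adhesion molecule E-cadherin (Cdh1) at 655, 792 and 604 CPM against 0, 1.53 and 7.90 CPM.

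The 10 genes lower in basophils by the largest margin were Tpsab1, Tph1, Kit, Mrgprb1, Slc29a1, Vwa5a, Slc45a3, Plau, Ccl7 and Basp1. Tph1, which makes serotonin, had 0 reads in the basophils and stood at 721, 3258 and 1429 CPM in mast cells, and the chemokine gene Ccl7 stood at 134, 78.0 and 54.4 CPM against 3864, 6378 and 3333 CPM. By group, 11 of the 13 cytokine and growth factor genes compared were higher in basophils and 0 lower, among them Il4, Il6, Osm and Hgf. Of all genes compared, 9.45% were higher and 10.1% lower. The lists were of basophil functions, chosen with earlier results of these data known, and Ccl7 was not on them. A lean of the list counts towards basophils was thus built in. Of 6 histamine and lipid mediator genes, 4 were higher (Alox15, Alox5, Alox5ap and Ptgs2). Ptgs2, which encodes the prostaglandin synthase COX-2, stood at 1112, 2007 and 1847 CPM against 11.9, 36.4 and 54.3 CPM. Of 12 genes of FcεRI and its signalling, Fcer1a was lower and the other 11 did not meet the rule. Of the 18 immediate early genes, 9 were higher and 0 lower, and none of the 9 glycolysis and hypoxia genes met the rule in either direction.

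**Figure D5:**
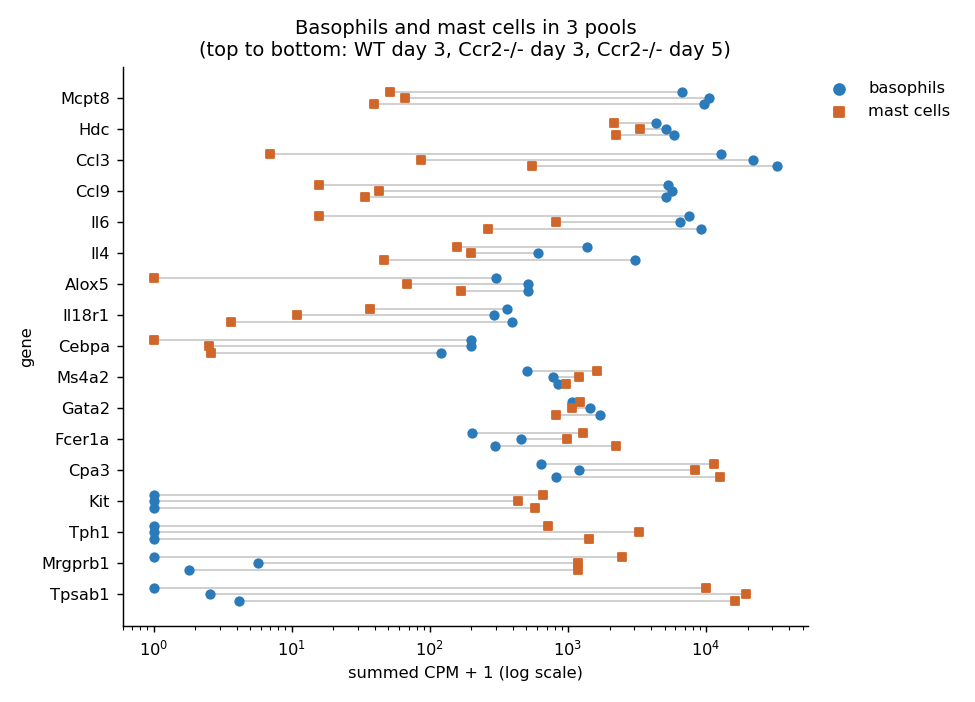
Summed CPM + 1 on a log axis of 17 genes in basophils (circles) and mast cells (squares) of WT day 3, Ccr2-/- day 3 and Ccr2-/- day 5. Ccl3, Ccl9 and Alox5 lay higher in basophils in each pool, and Kit, Tph1, Mrgprb1 and Tpsab1 lay higher in mast cells.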

How the data were processed

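The deposited values are counts of reads, per gene and barcode in the cDNA matrix and per hashtag and barcode in a separate table. Reads had been trimmed by the authors (Cutadapt), aligned to Ensembl mouse RNA of GRCm38 (Bowtie2) and limited to barcodes past the inflection point. The background subtraction of the methods was not visible (22.1% of values above 0 were 1, and 92.3% of barcodes had a Col1a1 read). Barcodes with over 20% mitochondrial reads or under 200 genes were left out. A barcode was given to the hashtag highest over its column total, if that was 3 times the next and the barcode had 10 hashtag reads. This removed hashtag multiplets, and no doublet caller was run. The 9 further hashtag columns were not used. Members and lists were chosen with earlier results of these data known.

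CPM were a pool's summed reads of a gene over all reads of its basophils (524051, 1268661 and 1268543 reads in WT day 3, Ccr2-/- day 3 and Ccr2-/- day 5, which set the width of the intervals). Genes with 50 reads, and reads in 20% of the cells, over both pools together were compared with a pseudocount of 1 CPM. Named were the 12 called genes per direction whose smallest of 3 log2 ratios was largest (10 against mast cells), called listed genes, and fixed markers and mediators. Mast cells had at least 2000 CPM of the proteases, under 500 CPM of Mcpt8 and under 3000 CPM of Col1a1. Thinning to 5000 reads left out 0, 1 and 2 basophils of these pools. numpy 2.4.6, scipy 1.17.1 and pandas 2.3.3 were used. The fold rule was run on simulated counts, in which only well-read genes were changed, and by more than 2-fold. It was thus not tried on changes in sparse genes, and its rate of wrong calls is not given here. Positions are from GENCODE M21 (GRCm38), another release than that of the alignment. Alternatives changed the thresholds for Mcpt8, proteases, Col1a1 and hashtags, the summary, the pseudocount and the filter.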

Additional observations from a re-analysis of the deposited data

Results flagged for a closer look

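Il4 was also read in Mcpt8-positive barcodes that entered no comparison. The 22 basophils in no pool, 18 of them with several hashtags, held 794 Il4 reads in 11 cells, a level of 1632 CPM, against a floor of 6.17 CPM that 3 reads would give. The 2 pooled barcodes that reached the Mcpt8 threshold and were left out by the Col1a1 limit held 2064 Il4 reads, a level of 3850 CPM against a floor of 5.60 CPM. They were deep barcodes, with 333484 reads in WT day 3 and 202573 reads in Ccr2-/- day 3, and carried 4036 and 5667 CPM of Col1a1.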

How the results depend on the processing

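Each pool was 1 sample, so no difference between pools was tested against replicates, and the WT day 3 levels rest on 26 cells. No paired analysis was possible because there was 1 pool per genotype and day. The difference in the share of basophils stayed between 1.46 and 1.90 percentage points under all alternatives, and the exact permutation test of 4 pools cannot give a p below 0.33, so its p says nothing of stability. The WT day 5 pool with its 1 basophil is part of this difference in every setting. The 5.05-fold Il4 ratio of Ccr2-/- day 5 to day 3 was 5.51 with a Col1a1 limit of 500 CPM, 4.33 by the mean over cells, 4.19 without the top cells and 3.42 with no Col1a1 limit. The Il4 ratio of Ccr2-/- to WT on day 3, 0.441, was 0.332 with a hashtag ratio of 10, 0.373 with a Col1a1 limit of 500 CPM, 0.384 by the mean over cells, 0.957 without the top cells, 0.345 with no Col1a1 limit and 0.347 without basophils that carried reads of other cells, and it turned to 1.05 when 2 of the 4 other markers were required. The 262 genes called between genotypes became 419 by summed CPM alone, 437 by the mean alone, 3822 with no filter on low counts and 113 with the cell minimum met in each pool, and the higher share of the calls, 65.3%, became 53.7% and 55.1% by the sum and by the mean alone and 50.4% with the minimum in each pool. The 159 genes called between days became 239 with a Mcpt8 threshold of 2000 CPM, 319 by the mean alone, 3244 with no filter and 84 with the minimum in each pool. Without basophils that carried reads of other cells, 334 genes were called between genotypes and 195 between days. In that setting 4 of the 48 genes named by rank were no longer called. With no Col1a1 limit, the log2 ratios of Pdia6 and Pcna between genotypes turned to -1.11 and -0.91, and those of Ccl11 and Ifitm3 between days to -3.81 and -0.27. The settings with the minimum in each pool, without the Col1a1 limit and without basophils that carried reads of other cells were chosen after seeing the data. Of the 48 genes named by rank, 9 stayed called the same way under every setting, and 31 under every setting but the minimum in each pool, where 38 had too few cells to be compared. The causes of these changes were not tested, beyond the single cells and barcodes named.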

Other observations

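The basophils in no pool resembled those in the pools in the genes described. The 22 cells stood at 6576 CPM of Mcpt8, 4892 CPM of Hdc, 20615 CPM of Ccl3, 7540 CPM of Il6 and 446 CPM of Il13. Of the 170 basophils 10.6% carried several hashtags, against 6.33% of all kept barcodes. In Ccr2-/- day 5, the barcode outside the basophils with the most Il4 reads held 186 of them at 7362 CPM, with 0 reads of Mcpt8 and 1187 CPM of Cd200r3.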
